A study of Mus musculus with 8 samples.

Results

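Dendritic cells (DCs) of the lung were examined through 10 genes that mark their subsets, chosen by symbol from the 54532 genes with deposited counts. The type 1 genes were Xcr1, Clec9a, Batf3, Irf8 and Itgae, the type 2 genes were Cd209a and Clec10a, and the genes shared by subsets or carried by mature DCs were Flt3, Zbtb46 and Ccr7. The RNA came from whole lungs of CC-LR mice at 14 weeks of age, 4 labelled Control and 4 given the STAT3 inhibitor TTI-101 for 4 weeks, with 1 library per mouse. All 8 mice carried a loxP-stop-loxP K-rasG12D allele and Cre recombinase at the locus of club cell secretory protein, so the mutant K-ras was switched on in lung epithelium while the DCs were those of an immunocompetent host. Both sexes were used in the study on a C57BL/6 background. The labels give neither the sex nor the route of dosing of these mice, and they do not say what the Control mice received. Library totals ran from 16075855 to 26873509 counts.

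Classical DCs take up antigen in the airway and carry it to draining lymph nodes. Type 1 DCs depend on the transcription factors IRF8 and BATF3 and hand antigen from dying cells to CD8 T cells, while type 2 DCs mainly prime CD4 T cells. FLT3, a receptor tyrosine kinase, sustains the development of both, ZBTB46 is a transcription factor of committed classical DCs, and CCR7 is the chemokine receptor by which mature DCs enter lymphatic vessels. STAT3 acts downstream of FLT3 as well as of the IL-6 and IL-10 receptors. In RNA of a whole lung, fewer DCs and less RNA per DC cannot be told apart. Several of the 10 genes are also used by other cells: Irf8 by B cells and macrophages, Itgae by intraepithelial T cells, Ccr7 by B cells and naive T cells, Clec10a by macrophages, and Zbtb46 by endothelium.

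All 10 genes were detected in all 8 libraries, with between 29 counts (Batf3 in TTI-101-treated mouse 4) and 2273 counts (Irf8 in control mouse 1), and all 10 passed the filter on low counts. Each gene had the same position in GENCODE M21 as in the deposited table, on mouse build GRCm38. The tissue label was borne out by its markers: the 8 lung epithelium genes, among them Sftpc and Scgb1a1, summed to between 41362 and 101888 CPM (counts scaled to a library total of 1000000) in the 8 libraries. On the first principal component of log2 CPM control mouse 4 was at 101, the other 7 mice being at 17.9 or less, and it had 5.56% mitochondrial counts against 2.01% to 2.85% elsewhere.

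Because the drug acts on a STAT factor, the promoters were read for the palindrome that STAT dimers bind, together with the sites of partner factors of the DC program. RefSeq promoters (GRCm38.p6, 250 bases before to 50 after the transcript start) were at hand for 7 of the 10 genes, with 8 sequences in all since Irf8 had 2. The letters searched on both strands were TTCNNNGAA for STAT, a pair of GAAA parted by 2 bases for the interferon response element, TGANTCA for AP-1, and GGAA followed after 2 bases by GAAA for the composite of PU.1 and an IRF. These are found in 8.30%, 3.44%, 7.81% and 2.72% of all 32851 promoters, in that order. The first Irf8 promoter held 2 STAT matches, shown in capitals within chr8:120736162-120736238 of the plus strand, starting 171 and 153 bases before the transcript start. The sequence listed for Zbtb46 lies before a start inside the gene, downstream of the gene's outermost start, and held an AP-1 match, the kind of site that BATF3 occupies with a JUN protein, shown in capitals within chr2:181424418-181424474 and written along the minus strand.
Irf8: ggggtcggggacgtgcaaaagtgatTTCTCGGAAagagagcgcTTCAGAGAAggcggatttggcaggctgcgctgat
Zbtb46: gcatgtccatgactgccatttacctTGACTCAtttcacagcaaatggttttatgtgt
Batf3 had 1 STAT match, 239 bases before the listed RefSeq start but within an exon of other annotated transcripts that begin further upstream, and Cd209a had 1 match to the PU.1-IRF letters, across its start. The promoters of Xcr1, Clec9a and Flt3 held none of the 4 motifs. These are matches of letters in a short window, and binding was not measured.

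In edgeR's quasi-likelihood fit, 0 of the 10 genes had an adjusted p under 0.05, and so did 0% of the 17138 genes tested. At an unadjusted p under 0.05 it counted 3 of the 10, namely Ccr7, higher in TTI-101-treated lungs, and Xcr1 and Itgae, both lower. Over all genes tested, 6.61% were under that value, 3.02% being higher and 3.58% lower. In CPM, 0 of the 10 genes had groups that did not overlap, against 2.96% of all genes tested (1.53% with every treated mouse above and 1.43% with every treated mouse below the controls). DESeq2 and limma-voom likewise called 0 of the 10 after adjustment and counted the same 3 genes without it. Of the 10 fitted log2 fold changes, 6 lay above 0, as did 50.6% of all genes tested, and 4 below 0, as did 49.4%. The type 1 genes did not share a direction: Xcr1, Itgae and Batf3 had fitted log2 fold changes below 0, while Irf8 and Clec9a lay above 0.

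**Figure D1:**
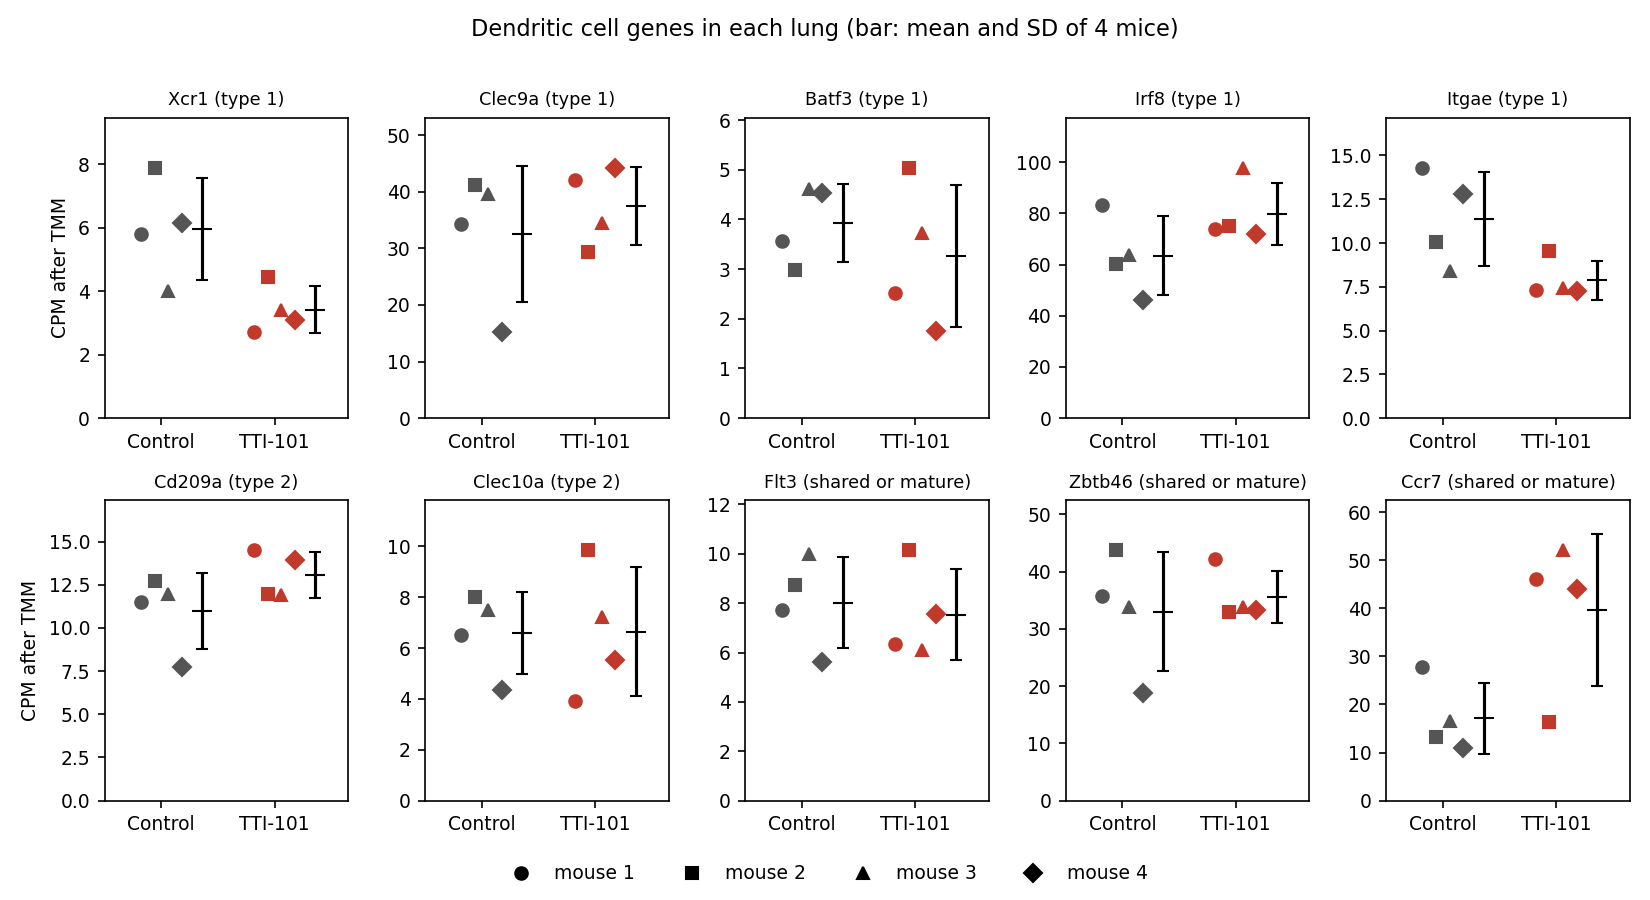
Level of each of the 10 DC genes in CPM (vertical axis, linear, from 0) in 4 Control and 4 TTI-101-treated lungs, with 1 symbol shape per mouse number and the mean ± SD beside each group. In Xcr1 and Itgae 3 of 4 treated lungs sit below every control lung, and in Ccr7 3 of 4 sit above every control lung. In Clec9a, Irf8, Cd209a, Flt3, Zbtb46 and Ccr7 control mouse 4 is the lowest of all 8.

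Xcr1, the receptor by which type 1 DCs follow the chemokine XCL1, was at 5.80, 7.89, 3.99 and 6.14 CPM in control mice 1 to 4 and at 2.71, 4.44, 3.39 and 3.10 CPM in TTI-101-treated mice 1 to 4. Treated mouse 2 was above control mouse 3, and the other 3 treated mice were below every control mouse. The means were 5.96 ± 1.60 and 3.41 ± 0.741 CPM (SD, n = 4 each). The log2 fold change was -0.80 with a standard error of 0.28 and a 95% interval from -1.42 to -0.19 (edgeR unadjusted p = 0.0156, adjusted p = 0.657). A two-sided exact permutation test of log2 CPM over 70 assignments gave p = 0.0571, where the smallest possible is 0.0286. Leaving out single mice, the log2 fold change ran from -0.95 without control mouse 3 to -0.64 without control mouse 2, and only in the latter was the unadjusted edgeR p above 0.05, at 0.0586.

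Clec9a encodes the lectin receptor with which type 1 DCs sense the actin of dead cells. Its levels were 34.3, 41.2, 39.6 and 15.2 CPM in the control mice and 42.1, 29.3, 34.4 and 44.3 CPM in the treated mice. Control mouse 4 was far below the other 7, which overlapped freely. The log2 fold change of 0.20 (95% interval -0.42 to 0.83, edgeR adjusted p = 0.835) was -0.018 without control mouse 4. Xcr1 and Clec9a were both listed as type 1 genes, but within groups their Pearson r was -0.28 over the 8 libraries. Whether they follow the same cells in these lungs was not tested. Xcr1 CPM were 16.9%, 19.1%, 10.1% and 40.5% of Clec9a CPM in control mice 1 to 4 and 6.44%, 15.2%, 9.85% and 7.01% in treated mice 1 to 4. Treated mouse 2 lay among the controls in this ratio and the other 3 treated mice lay below all of them, and the difference in ratio was not tested. Of the distinct 50-base stretches in Clec9a transcripts, 4.02% also occur in Clec1b, an overlapping gene of the same strand, and reads there could be counted to either.

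Itgae, the CD103 integrin chain of airway DCs and of T cells lodged in epithelium, was at 14.3, 10.0, 8.38 and 12.8 CPM in control and 7.31, 9.55, 7.45 and 7.24 CPM in treated mice. Treated mouse 2 again fell inside the control range and the other 3 lay below it. The log2 fold change was -0.53 (standard error 0.22, 95% interval -1.02 to -0.040, edgeR unadjusted p = 0.0365, adjusted p = 0.657, exact permutation p = 0.0571). With 1 mouse left out it ran from -0.65 to -0.40, and the unadjusted p stayed under 0.05 in 3 of the 8 cases. Its partners lay on opposite sides of 0. Itgb7, the beta chain that pairs with CD103, was at 37.9 ± 10.7 CPM in control and 64.1 ± 15.5 CPM in treated lungs (SD, n = 4 each, log2 fold change 0.76, edgeR unadjusted p = 0.00988, adjusted p = 0.657). Cdh1, the E-cadherin that CD103 binds on epithelium, was at 573 ± 199 and 389 ± 71.6 CPM (SD, n = 4 each, log2 fold change -0.56, edgeR unadjusted p = 0.0414, adjusted p = 0.657), with its highest value, 869.7 CPM, in control mouse 4.

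Irf8 encodes the transcription factor that commits progenitors to the type 1 lineage. It was at 83.4, 60.4, 63.9 and 46.3 CPM in control and 74.0, 75.1, 97.8 and 71.8 CPM in treated lungs. All 4 treated values were above the control mean of 63.5 CPM, but only treated mouse 3 was above control mouse 1. The log2 fold change was 0.33 (standard error 0.19, 95% interval -0.088 to 0.74, edgeR unadjusted p = 0.110, adjusted p = 0.657), and with 1 mouse left out it ran from 0.21 without control mouse 4 or treated mouse 3 (unadjusted edgeR p = 0.237 and 0.296) to 0.49 without control mouse 1 (unadjusted edgeR p = 0.0210, exact permutation p = 0.0286). Without control mouse 1, 13.7% of all genes tested were under an unadjusted p of 0.05.

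Batf3, an AP-1 factor of the type 1 DC program, was the least counted of the 10 genes. Its levels were 3.56, 2.99, 4.60 and 4.54 CPM in control and 2.52, 5.04, 3.72 and 1.76 CPM in treated mice, so that the treated group held both the highest and the lowest value. The log2 fold change of -0.27 had a 95% interval from -1.03 to 0.50 (edgeR adjusted p = 0.824), and the value ran from -0.55 without treated mouse 2 to -0.064 without treated mouse 4. Of the JUN proteins with which BATF3 dimerizes, Jun was at 215 ± 38.7 CPM in control and 337 ± 79.1 CPM in treated lungs (SD, n = 4 each, log2 fold change 0.65, edgeR unadjusted p = 0.0104, adjusted p = 0.657), whereas Junb and Jund had log2 fold changes of 0.14 and -0.16 with adjusted edgeR p-values of 0.906 and 0.860.

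Cd209a, a mouse relative of the lectin DC-SIGN carried by type 2 and monocyte-derived DCs, was at 11.5, 12.7, 11.98 and 7.74 CPM in control and 14.5, 11.9, 11.9 and 13.9 CPM in treated mice. The treated values were above the control mean of 10.98 CPM in 4 of 4 mice, and 2 of them were above every control mouse. Control mouse 4 was the lowest of the 8. The log2 fold change of 0.25 (95% interval -0.19 to 0.69, edgeR adjusted p = 0.711) was 0.13 without that mouse. Clec10a, the galactose-type lectin CD301a of type 2 DCs and macrophages, showed the smallest difference of the 10 genes. It was at 6.49, 8.01, 7.49 and 4.35 CPM in control and 3.92, 9.85, 7.23 and 5.53 CPM in treated lungs, with a log2 fold change of 0.0055 (95% interval -0.69 to 0.70, edgeR adjusted p = 0.997). The treated mice spanned more than the whole control range. Its neighbour Mgl2, a close copy also listed among type 2 genes, holds 8.49% of the distinct 50-base stretches of Clec10a, and it had a log2 fold change of -0.018 (edgeR adjusted p = 0.983).

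Flt3 was at 7.70, 8.73, 9.99 and 5.63 CPM in control and 6.33, 10.1, 6.11 and 7.54 CPM in treated mice, overlapping throughout, with a log2 fold change of -0.091 (95% interval -0.65 to 0.47, edgeR adjusted p = 0.925). Flt3l, its ligand and the growth factor of classical DCs, was at 41.7 ± 16.7 CPM in control and 54.6 ± 5.91 CPM in treated lungs (SD, n = 4 each, log2 fold change 0.39, edgeR adjusted p = 0.702). The lowest Flt3l value, 17.5 CPM, was that of control mouse 4, and the other 7 mice lay between 43.9 and 60.6 CPM. Zbtb46 was at 35.7, 43.8, 33.8 and 18.8 CPM in control and 42.3, 32.9, 33.9 and 33.3 CPM in treated mice, and its log2 fold change of 0.11 (95% interval -0.40 to 0.62, edgeR adjusted p = 0.900) was -0.074 without control mouse 4. In that mouse the 8 endothelial markers summed to 1243 CPM, against 2967 to 3423 CPM in the other controls and 2900 to 4568 CPM in the treated mice, and none of the 8 was at 0. The part of endothelium in the Zbtb46 values was not tested.

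Ccr7 had the largest difference of the 10. It was at 27.7, 13.3, 16.5 and 11.001 CPM in control mice 1 to 4 and at 46.0, 16.5, 52.1 and 44.0 CPM in treated mice 1 to 4. Treated mouse 2 sat within the control range, and the other 3 treated mice exceeded every control mouse. The means were 17.1 ± 7.42 and 39.6 ± 15.8 CPM (SD, n = 4 each), a 2.31-fold difference with a 95% interval from 1.30 to 4.08 (log2 fold change 1.21, standard error 0.37, edgeR unadjusted p = 0.0084, adjusted p = 0.657). The exact permutation test gave p = 0.0857. Leaving out any 1 mouse kept the log2 fold change between 1.05 and 1.54 with an unadjusted edgeR p from 0.000425 to 0.0291, the adjusted p being at least 0.280.

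B cell markers, and likewise the general leukocyte genes, took almost the same order across the mice as Ccr7. The 12 B cell markers, all above 0 counts in every library, were all higher in treated lungs at an unadjusted edgeR p under 0.05, with a median log2 fold change of 1.18 and an adjusted p over 0.05 for each. Their summed level was 375, 210, 212 and 132 CPM in control mice 1 to 4 and 624, 311, 653 and 529 CPM in treated mice 1 to 4. The 8 general leukocyte genes summed to 1020, 640, 772 and 448 CPM in control and 1068, 702, 1267 and 1097 CPM in treated mice. In both sums, as for Ccr7, treated mouse 2 was the lowest treated mouse and control mouse 1 the highest control mouse. The 12 T cell markers had a median log2 fold change of 0.76 (0.46 without control mouse 4 and 1.34 without control mouse 1) with 0 under an unadjusted edgeR p of 0.05, and their sum ran from 29.4 to 139 CPM in control and from 71.8 to 161 CPM in treated lungs. Of the 17 tested genes of mature DCs other than Ccr7, such as Fscn1, Ccl22, Cd83 and Relb, 8 lay above and 9 below 0. Their median was -0.0090 (-0.066 without treated mouse 2 to 0.094 without treated mouse 4), with 0 at an unadjusted edgeR p under 0.05. Their levels differed widely, from Cd200 at a control mean of 175 CPM to Ccl22 at 13.9 CPM and lower. Which cells carried them was not tested. The part of lymphocytes, of mature DCs or of other leukocytes in the Ccr7 values was not tested.

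The ligands of CCR7 were sparse or uneven. The 2 rows named Ccl19 held 0 counts in all 4 control libraries and 15, 0, 2 and 1 counts in treated mice 1 to 4. The 6 rows of Ccl21 copies, whose near-identical sequences share reads, summed to 21.1, 38.5, 4.32 and 4.15 CPM in control and to 3.12, 4.08, 14.8 and 17.9 CPM in treated mice, high in 2 mice of each group. Xcl1, the ligand of XCR1, was at most 1.28 CPM in the 8 mice, with 0 counts in control mouse 4. A count of 0 does not show that the transcript was absent there.

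**Figure D2:**
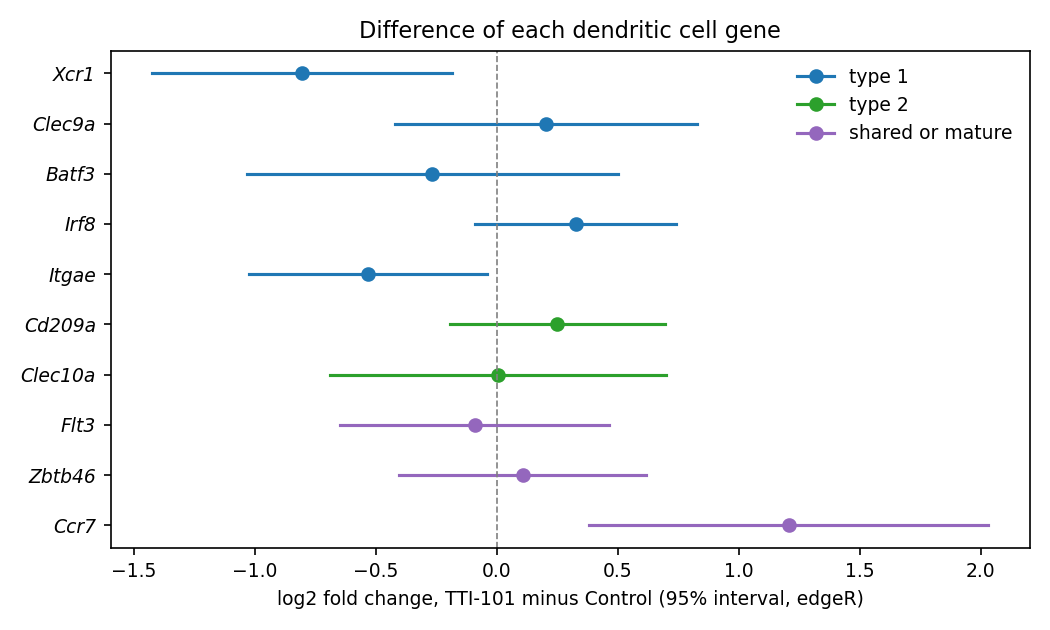
Log2 fold change of each DC gene, TTI-101 minus Control, from edgeR (points, horizontal axis) with 95% intervals (lines), coloured by subset. The intervals of Xcr1, Itgae and Ccr7 leave out 0 before adjustment over all genes, and those of the other 7 genes include it.

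Compared per kilobase of transcript, so that genes of different length can be set side by side, Ccr7 was the most abundant of the 10 at a mean of 14.4 CPM per kilobase over the 8 libraries, followed by Clec9a at 10.6 and Irf8 at 10.1. Cd209a was at 7.60, Zbtb46 at 4.03, Clec10a at 2.28, Batf3 at 2.25 and Itgae at 2.10 CPM per kilobase. Flt3 at 1.26 and Xcr1 at 1.05 CPM per kilobase were the least abundant. Each gene overlapped its neighbour in this order over the 8 mice. Clec9a and Xcr1 were far apart: the lowest Clec9a value, 4.60 CPM per kilobase, exceeded the highest Xcr1 value of 1.77. Among all genes tested, Ccr7 stood at the 77.3th percentile of level per length and Xcr1 at the 18.5th.

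Leukocyte RNA varied between the lungs, with overlapping groups. Ptprc, which encodes the pan-leukocyte protein CD45, was at 124 ± 57.6 CPM in control and 180 ± 69.5 CPM in treated lungs (SD, n = 4 each, edgeR unadjusted p = 0.165), ranging from 72.3 CPM in control mouse 4 to 246 CPM in treated mouse 4. The 10 genes were therefore also set against Ptprc, a reference gene that the study used in its qRT-PCR. On this scale Ccr7 was at 13.4%, 12.6%, 14.5% and 15.2% of Ptprc in control and 20.8%, 18.4%, 31.8% and 17.9% in treated mice, and it was the 1 gene of the 10 with all treated mice above all control mice, where 0.268% of all genes tested had that pattern. Xcr1 was at 5.58 ± 2.84% of Ptprc in control and 2.38 ± 1.77% in treated lungs, and Itgae at 10.4 ± 5.01% and 5.37 ± 3.60% (SD, n = 4 each), with treated mouse 2 within the control range of both. Clec9a was at 27.9 ± 10.9% and 22.7 ± 6.82%, Irf8 at 54.5 ± 10.1% and 51.6 ± 25.5%, Cd209a at 9.73 ± 2.88% and 8.22 ± 3.49%, Zbtb46 at 28.7 ± 10.1% and 22.5 ± 9.99%, and Clec10a at 5.85 ± 1.92% and 4.86 ± 4.26% of Ptprc (SD, n = 4 each). As Ptprc itself had a log2 fold change of 0.53, any gene with a smaller one lay lower on this scale. The ratio to Ptprc was not tested.

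**Figure D3:**
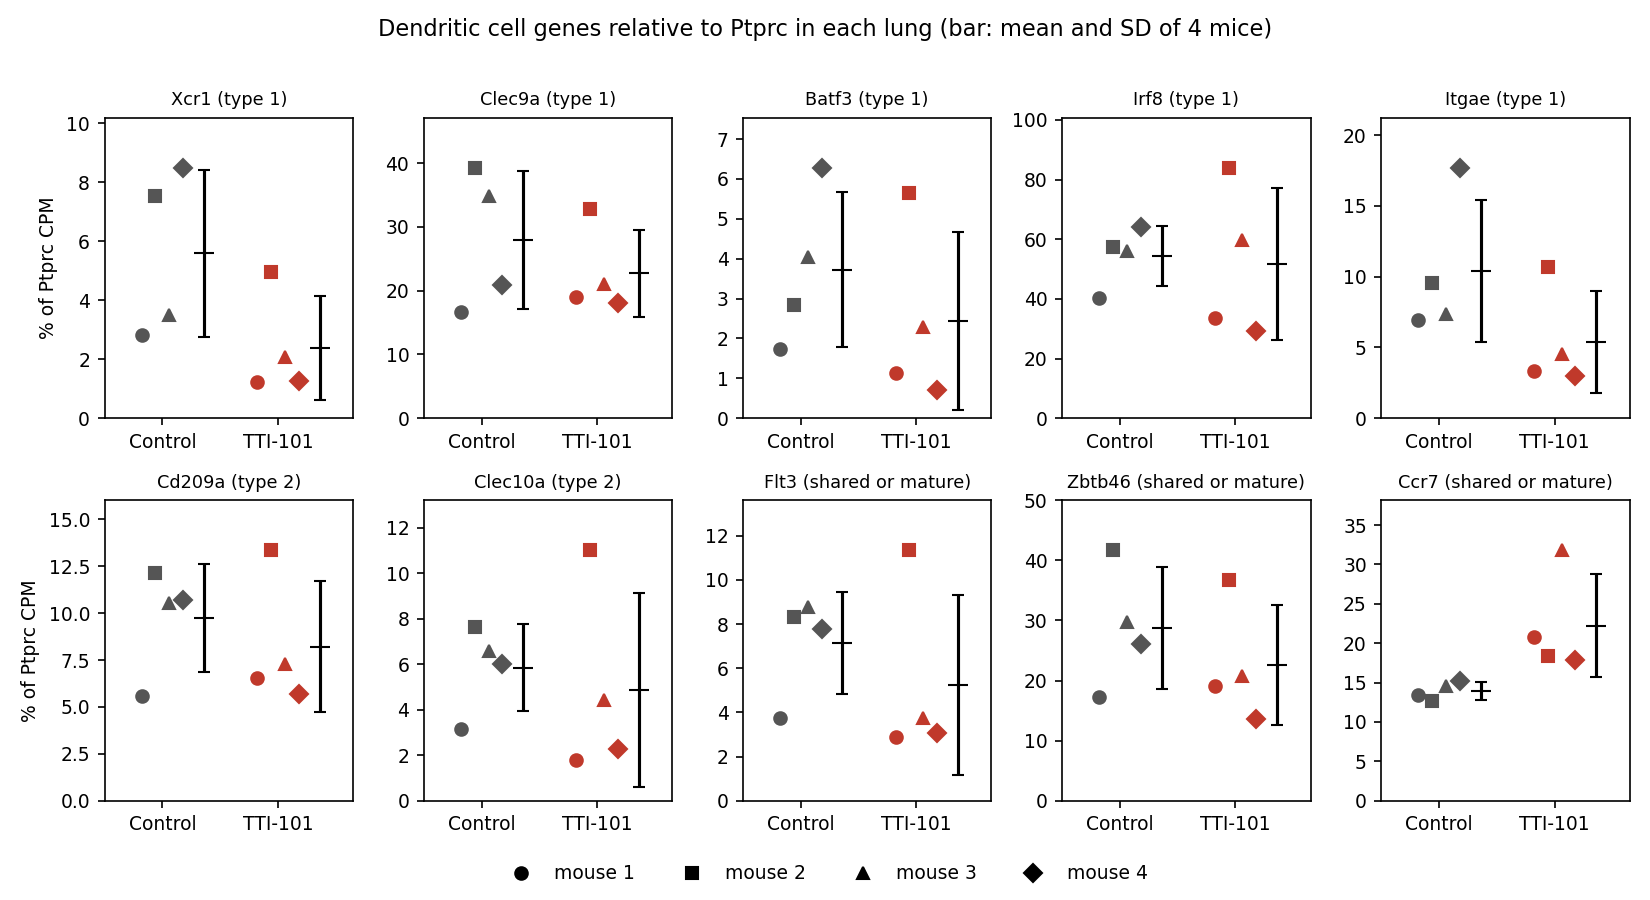
Level of each DC gene as a percent of the Ptprc level of the same lung (vertical axis, linear, from 0), with 1 symbol shape per mouse number and the mean ± SD beside each group. Ccr7 is the only panel of the 10 in which the groups do not overlap, and treated mouse 2 is the highest treated mouse for every gene but Ccr7.

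Within groups, the genes fell into patterns that did not follow the subsets. Control mouse 4 was the lowest control for 7 of the 10 genes, namely Clec9a, Irf8, Cd209a, Clec10a, Flt3, Zbtb46 and Ccr7, and the highest for 0. Treated mouse 2 was the highest treated mouse for Xcr1, Batf3, Itgae, Clec10a and Flt3 and the lowest for Clec9a, Zbtb46 and Ccr7. After removal of the group means, Clec9a and Cd209a, a type 1 and a type 2 gene, ran in parallel over the 8 libraries (Pearson r = 0.981, and 0.900 without control mouse 4). The r of Clec9a with Zbtb46 was 0.905 and dropped to 0.452 without that mouse, and the r of Clec9a with Xcr1 was -0.28. These values describe 8 libraries that share their depth scaling and rest in part on control mouse 4. Of all genes tested, those most parallel to Cd209a were Ust (r = 0.997), Gm42528 (r = 0.987) and Gkap1 (r = 0.986), those most parallel to Clec9a were Mapt (r = 0.985), Aff3 and Zfp697 (both r = 0.984), and those most parallel to Ccr7 were Adpgk (r = 0.993), Stk10 (r = 0.992) and A530064D06Rik (r = 0.990).

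**Figure D4:**
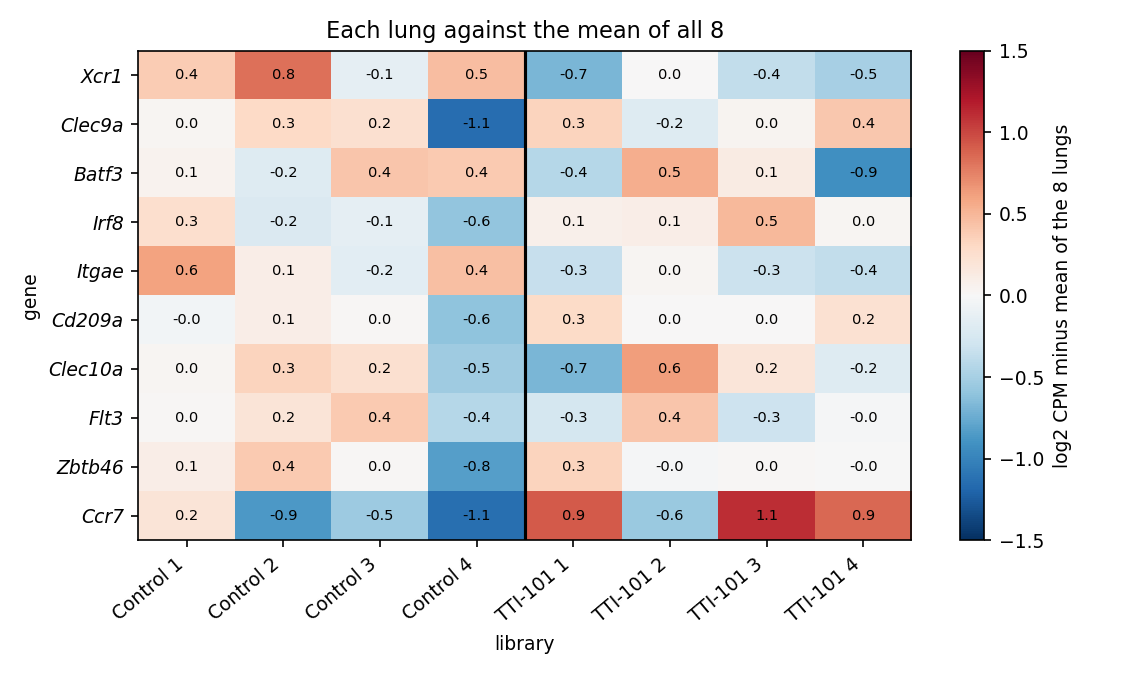
Log2 CPM of each DC gene (rows) in each library (columns) minus the mean of the 8 libraries, in colour and as numbers, with the groups parted by a line. Control mouse 4 is low for 7 of the 10 genes, and treated mouse 2 lacks the high Ccr7 of the other 3 treated mice.

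Other genes of the DC subsets were followed through short lists. Of 11 further type 1 genes, 8 had a log2 fold change below 0 and 3 above, with a median of -0.10 against 0.0034 over all genes tested. That median was -0.18 without treated mouse 3 and -0.036 without control mouse 1. At an unadjusted edgeR p under 0.05, 3 of the 11 were lower and 0 higher, against 3.58% and 3.02% of all genes tested. Gcsam, a signalling adaptor shared with germinal centre B cells, was at 3.93, 3.29, 3.27 and 2.62 CPM in control and 1.28, 1.68, 2.00 and 0.851 CPM in treated mice, so that the groups did not overlap, as in the same direction for 1.43% of genes tested (log2 fold change -1.17, standard error 0.33, edgeR unadjusted p = 0.00481, adjusted p = 0.657). Cd24a, which epithelium also carries, had a log2 fold change of -0.65 and its highest value, 948 CPM, in control mouse 4 (edgeR unadjusted p = 0.0320, adjusted p = 0.657). The 8 lung epithelium markers, 6 of them below 0 and none at 0 counts, had a median log2 fold change of -0.43, or -0.20 without control mouse 4 and -0.69 without treated mouse 2, and summed to 57371 to 101888 CPM in control and 41362 to 77611 CPM in treated lungs. The part of epithelium in the Cd24a and Cdh1 values was not tested. The third was Tlr11, a toll-like receptor named here after its values were seen, at 2.14 ± 0.704 and 1.14 ± 0.524 CPM (SD, n = 4 each).

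Among 7 tested type 2 genes, 4 lay above 0 and 3 below, with a median of 0.12 that was 0.039 without control mouse 4 and 0.27 without control mouse 1. Irf4, a transcription factor of type 2 DCs that B and plasma cells share, was at 9.17, 6.58, 4.94 and 4.73 CPM in control and 12.2, 7.81, 11.7 and 14.2 CPM in treated mice (log2 fold change 0.85, standard error 0.27, edgeR unadjusted p = 0.0110, adjusted p = 0.657). Treated mouse 2 was again the 1 treated mouse inside the control range. Klf4, another factor of type 2 DCs with wide expression in the lung, was at 103 ± 48.7 and 156 ± 48.5 CPM (SD, n = 4 each, edgeR adjusted p = 0.667). The 13 transcription factors of DC development had a median log2 fold change of 0.49, or 0.34 without control mouse 4. Of these factors 12 were above 0 and 1 of them, Irf4, was at an unadjusted edgeR p under 0.05. The 8 general leukocyte genes, all 8 above 0, had a similar median of 0.47, or 0.31 without control mouse 4. The second smallest p among the factors was that of Batf, a relative of Batf3, at a log2 fold change of 0.57 (edgeR unadjusted p = 0.0512). The 1 factor below 0 was Id2, which restrains E proteins in type 1 DCs, at -0.35 (edgeR unadjusted p = 0.0528).

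The 10 plasmacytoid DC genes had a median of 0.20, or 0.085 without control mouse 4 and 0.39 without control mouse 1. The 1 gene under an unadjusted p of 0.05 was Spib, a factor of plasmacytoid DCs and B cells, at 13.3 ± 8.70 CPM in control and 37.1 ± 14.9 CPM in treated lungs (SD, n = 4 each, log2 fold change 1.46, edgeR unadjusted p = 0.00873, adjusted p = 0.657), while Siglech, the surface lectin that defines these cells in mice and was named after its values were seen, had a log2 fold change of -0.11 (edgeR adjusted p = 0.924). Pacsin1, with the next p in that list, had a log2 fold change of 0.73 (edgeR adjusted p = 0.659). The 7 genes found across classical DCs had a median of 0.050, which was -0.025 without control mouse 3 and 0.30 without control mouse 1. Bcl11a, which B cells also use, had the smallest p among them with a log2 fold change of 1.03 (edgeR unadjusted p = 0.0311, adjusted p = 0.657), followed by Kmo at 0.27 (edgeR adjusted p = 0.725). Of the mature DC genes, Cd40 at 0.54 and Socs2 at -0.26 had the smallest p-values, both with an adjusted edgeR p of 0.657. The 10 genes of monocytes and monocytic DCs had a median of -0.18 with 8 below 0 (-0.39 without treated mouse 3 and -0.098 without treated mouse 2), and the 1 of them under an unadjusted edgeR p of 0.05 was Vcan, at -0.58 (adjusted p = 0.657), while Plac8 was at 0.79 (adjusted p = 0.657). Csf1, Csf2 and Csf2rb, of the colony-stimulating factors that also feed myeloid development, had log2 fold changes of 0.39, -0.35 and 0.22 with adjusted edgeR p-values from 0.713 to 0.779.

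Markers of other cell types were summed in the same way. The 10 alveolar macrophage markers ran from 480 to 1254 CPM in control and from 695 to 947 CPM in treated lungs, with a median log2 fold change of 0.26 (0.064 without treated mouse 3 and 0.44 without control mouse 1). The 8 interstitial macrophage markers ran from 635 to 917 and from 531 to 1106 CPM, with a median of -0.24 (-0.48 without treated mouse 2 and -0.015 without treated mouse 1), and the 7 natural killer cell markers from 14.0 to 68.5 and from 39.5 to 111 CPM, with a median of 0.73 (0.43 without control mouse 4). Neutrophil markers summed to 35.9 to 288 CPM in control and 61.9 to 435 CPM in treated lungs. The 6 of them that were tested all lay above 0, with a median of 0.82 (0.41 without treated mouse 4 and 1.30 without control mouse 1). The 4 tested red cell markers had a median log2 fold change of 2.58, all 4 at an unadjusted edgeR p under 0.05 and none at an adjusted p under 0.05. The 8 general leukocyte genes had a median of 0.47 and the 8 endothelial markers one of 0.50, each with all 8 above 0. Without control mouse 4 these medians were 0.31 and 0.27, and without control mouse 1 that of the leukocyte genes was 0.77. Every marker of the macrophage, natural killer cell, endothelial and general leukocyte lists was above 0 counts in all 8 libraries. The part of each cell type in the values of the 10 genes was not tested.

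**Figure D5:**
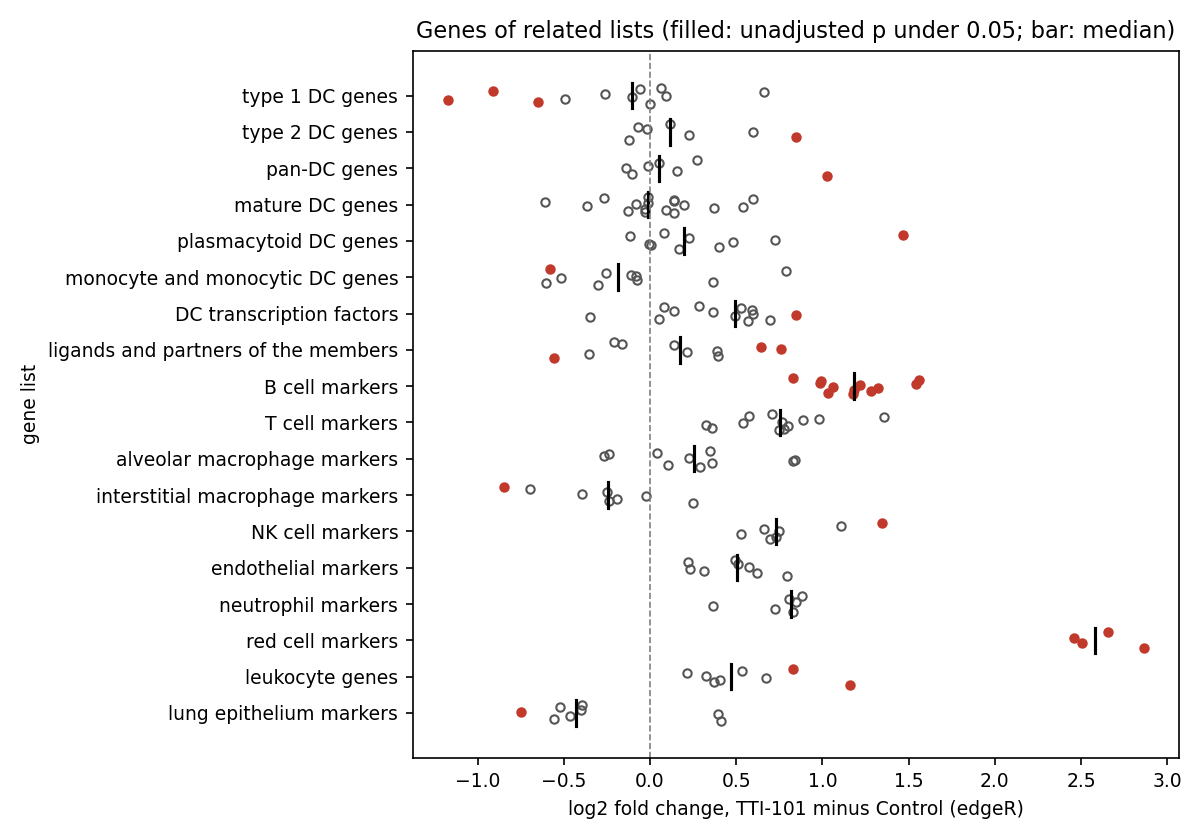
Log2 fold change, TTI-101 minus Control, of each tested gene (points) in 18 lists of related genes (rows), with filled points at an unadjusted edgeR p under 0.05 and a bar at the median. The type 1 DC list has filled points on the left alone, the mature DC list has none, and all 12 B cell markers are filled and lie on the right.

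Stat3 itself was at 257 ± 30.0 and 244 ± 26.8 CPM (SD, n = 4 each), with an edgeR adjusted p of 0.886.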

How the data were processed

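Lung RNA was poly(A)-selected and sequenced as paired ends by the provider, and the authors deposited raw counts for each Ensembl gene in 8 libraries. The labels name a stranded mRNA kit. The submitters' processing notes name STAR, DESeq2 and mm10. The counting tool and its strand setting are not given in the sources used here. The deposited table also lists gene lengths in bases.

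In R 4.3.3, counts were filtered with edgeR 4.0.16 (filterByExpr, minimum count of 10, 17138 of 54532 genes kept), scaled by TMM and compared with robust quasi-likelihood F-tests, with Benjamini-Hochberg adjustment over all genes tested. CPM were scaled by TMM. Of the identifiers, 54495 were in GENCODE M21. Log2 CPM with a prior count of 2 were compared by two-sided exact permutation tests, whose p-values were not adjusted. As the labels do not name litters or batches, p-values measure only the spread between these mice. DESeq2 1.42.0 and limma 3.58.1 (voom) were alternatives. The fits were tested on simulated data.

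The 10 genes and the lists were chosen with earlier results of these data known. Named genes were the 10 genes, Ptprc, Stat3, the ligands and partners, the 2 genes with the smallest p in each other DC list, and the 3 genes most parallel to Clec9a, Cd209a and Ccr7. Mgl2, Siglech, Tlr11, Id2, Fscn1, Ccl22, Cd83 and Relb fall outside that rule. So do Sftpc and Scgb1a1, named as tissue markers, and Clec1b, named as an overlapping gene.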

Additional observations from a re-analysis of the deposited data

Results flagged for a closer look

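For each of the 10 genes, the lowest and the highest of the 4 log2 CPM values of a group were compared with their closest value by Dixon's ratio of gap to range, at its 95% critical value. Of 20 such groups 4 exceeded it, where chance gives 1 on average. The groups come from the same mice and are not independent, so these counts do not measure an excess. All 4 were in treated mice: the gap was 0.854 of the group's range for Ccr7 in TTI-101-treated mouse 2, which was lower than the other 3, and 0.896 for Itgae in the same mouse, which was higher. It was 0.853 for Irf8 in treated mouse 3 and 0.887 for Zbtb46 in treated mouse 1, both higher than the rest. Control mouse 4, although the lowest control for 7 of the 10 genes, did not exceed the value for any of the 10. No cause was tested.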

How the results depend on the processing

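The number of the 10 genes called at an adjusted p under 0.05 was 0 under every alternative run, and the number at an unadjusted p under 0.05 stayed at 3 except for 2 with a replicate block and 2 to 3 when single mice were left out. The deviations of same-numbered mice from their group means had correlations of 0.393, 0.0822, 0.158 and 0.0707, with the own number the best for 2 of 4. So few mice cannot decide whether the replicate numbers pair them. With the replicate block Itgae was no longer among the genes counted. The exact permutation count of 0 was 0 to 1 with single mice left out, being Irf8 without control mouse 1 and Xcr1 without control mouse 3. Signs turned only for Clec10a, Clec9a, Zbtb46 and Flt3. For Clec9a (log2 fold change 0.20 with all mice) and Zbtb46 (0.11) the sign turned only without control mouse 4. Clec10a had log2 fold changes of -0.086 with limma-voom, -0.036 with the replicate block and -0.24 to 0.19 with single mice left out (-0.0010, -0.14, -0.24 and -0.039 without control mouse 1, control mouse 4, treated mouse 2 and treated mouse 3). Its mean log2 CPM difference of -0.032 was 0.0054 with library totals and -0.25 to 0.19 with single mice left out (0.073, 0.041, 0.19 and 0.027 without control mouse 2, control mouse 3, treated mouse 1 and treated mouse 4). With single mice left out, Clec9a ran from -0.018 to 0.35 (-0.047 to 0.43 in log2 CPM) and Zbtb46 from -0.074 to 0.28 (-0.085 to 0.32), both lowest without control mouse 4. Flt3 ran from -0.25 to 0.032 (-0.24 to 0.028 in log2 CPM), highest without control mouse 3, and was 0.0024 in log2 CPM without treated mouse 3. The cause was not tested. Over all genes, an unadjusted p under 0.05 was met by 2.42% without treated mouse 3 and 14.2% without treated mouse 2. At 29 to 97 counts per library, Batf3 was the gene whose precision depth limited most.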
